A study of Homo sapiens with 10 samples.

Results

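The oligosaccharyltransferase is the enzyme complex of the endoplasmic reticulum that attaches glycans to asparagines of new proteins. Of its subunit genes, RPN1, RPN2, DDOST, STT3A, STT3B, DAD1, OST4, OSTC, MAGT1 and TUSC3 were taken as one set, and all 10 were measured among 19775 genes. TMEM258 and KRTCAP2, also subunits, were left out of the set and are given apart. The subunit genes below are the 10 of the set, which had 19 probe sets annotated to them alone. The probe set with the highest mean of the 10 arrays led for each gene. The set was assembled because RPN2 was low with 1 hairpin against HDAC3, so that fall is given as a description with no test, and the other 9 genes were asked whether they shared it. RNA came from MM.1S, a human multiple myeloma cell line grown in culture and infected with lentivirus carrying a short hairpin RNA, and was extracted 48 h after infection. The 10 arrays form 5 groups of 2, and every group carries a hairpin. The control shLuc has a hairpin against luciferase, which the cells do not make, shHDAC3#1 and shHDAC3#2 have separate hairpins against the histone deacetylase HDAC3, and shDNMT1#1 and shDNMT1#2 have separate hairpins against the DNA methyltransferase DNMT1. The labels name shLuc as the control of the HDAC3 hairpins and give no share of infected cells. Nothing in them says that paired arrays had their own cultures, so each p-value reflects array-to-array spread that may be only technical.

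N-linked glycosylation begins on the membrane of the endoplasmic reticulum, where a lipid-linked glycan is built step by step on dolichol. The oligosaccharyltransferase then moves that glycan to asparagine residues of proteins entering the lumen. Mammalian cells hold alternative forms of the complex, built around either STT3A or STT3B as the catalytic subunit. The STT3A form sits at the translocon and works as the chain emerges, while the STT3B form acts on sites that were missed. RPN1, RPN2, DDOST, DAD1 and OST4 belong to both forms, OSTC to the STT3A form, and MAGT1 or its paralogue TUSC3 to the STT3B form. Myeloma cells derive from plasma cells, which secrete large amounts of glycosylated antibody.

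RefSeq promoter windows (build GRCh38.p14) were matched for 7 of the 10 genes; those of RPN1, STT3B and TUSC3 are not shown. The 250 bases before the start are shown for the 4 genes whose signal was lower with shHDAC3#1 than with shHDAC3#2, 3 by test and RPN2 by description, so that sequences of genes that moved together can be set side by side. They are printed 5′ to 3′ on the gene's strand, and the capitals mark CCAAT or CCACG on either strand (ATTGG and CGTGG on the opposite one). These are the parts of the endoplasmic reticulum stress element bound by NF-Y and ATF6. The windows are chr20:37179080-37179329 on the plus strand for RPN2, chrX:77895569-77895818 on the minus strand for MAGT1, chr4:108650349-108650598 on the plus strand for OSTC and chr1:20661370-20661619 on the minus strand for DDOST.
RPN2: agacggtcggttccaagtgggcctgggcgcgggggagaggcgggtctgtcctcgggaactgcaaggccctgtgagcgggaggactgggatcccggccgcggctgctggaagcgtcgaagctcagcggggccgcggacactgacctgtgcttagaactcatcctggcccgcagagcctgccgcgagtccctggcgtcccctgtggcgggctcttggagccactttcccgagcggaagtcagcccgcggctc
MAGT1: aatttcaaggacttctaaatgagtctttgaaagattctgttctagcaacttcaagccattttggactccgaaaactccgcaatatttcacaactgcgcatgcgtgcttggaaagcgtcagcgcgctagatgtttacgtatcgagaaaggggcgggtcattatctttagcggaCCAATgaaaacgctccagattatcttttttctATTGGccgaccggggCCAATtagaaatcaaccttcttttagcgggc
OSTC: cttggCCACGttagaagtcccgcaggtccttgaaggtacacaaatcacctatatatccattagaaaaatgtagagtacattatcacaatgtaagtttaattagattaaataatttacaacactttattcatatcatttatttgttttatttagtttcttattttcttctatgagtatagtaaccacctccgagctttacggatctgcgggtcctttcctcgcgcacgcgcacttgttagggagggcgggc
DDOST: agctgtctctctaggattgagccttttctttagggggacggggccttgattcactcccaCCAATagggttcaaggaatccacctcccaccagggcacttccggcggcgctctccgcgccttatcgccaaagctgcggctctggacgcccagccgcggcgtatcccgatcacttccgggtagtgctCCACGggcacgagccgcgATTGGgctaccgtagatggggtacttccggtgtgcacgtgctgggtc
The RPN2 window is 70.0% G and C and holds neither motif. The MAGT1 window is 44.4% G and C and holds 3 copies of CCAAT. The OSTC window, 38.4% G and C, holds 1 copy of CCACG, and the DDOST window, 62.4% G and C, holds 2 of CCAAT and 1 of CCACG. Both motifs are common: CCAAT was in 32.0% and CCACG in 33.5% of 35116 RefSeq windows of this length, against 4 and 3 of the 7 subunit windows. The whole stress element (CCAAT and, after 9 bases of any kind, CCACG; 0.074% of windows) and the motif TGACGTG (1.68%), searched on both strands, were in none of the 7. A match is a description of the letters and not a site, and the 4 windows had no motif in common.

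The arrays were alike in level and differed in spread. Signals are RMA values, which are log2 intensities summarised for each probe set. Replicates correlated at 0.994 to 0.996 (Pearson's r over probe sets, which are not independent) and differed by a root mean square of 0.16 to 0.21. HDAC3 was at 7.26 and 6.61 with shLuc, 5.98 and 5.72 with shHDAC3#1, and 5.83 and 5.52 with shHDAC3#2, so both HDAC3 hairpins lowered their target (-1.09 ± 0.18 and -1.26 ± 0.18, log2 change ± SE from limma; with the SD of each array as a covariate, -0.85 and -1.11, adjusted p = 0.63 and 0.048). DNMT1 fell with both of its own hairpins (-2.53 ± 0.12 and -2.24 ± 0.12) and also with both HDAC3 hairpins (-1.20 ± 0.12 and -0.65 ± 0.12), and HDAC3 was lower with shDNMT1#2 (-0.60 ± 0.18, adjusted p = 0.019). All 8 plasma cell markers lay above the array median on every array. Of 9 markers of T cells, monocytes, B cells and stroma, 4 lay below it on every array. CD3D, CD14, PAX5, COL1A1 and DCN lay above it on every array, so this measure does not tell plasma cells from other cell types. The SD of the log2 signals was 1.93 to 1.94 on the shLuc arrays and 1.84 to 1.92 on the others. Genes with a mean log2 signal of at least 8 had a median change against shLuc of -0.17 with shHDAC3#1 and -0.04 with shHDAC3#2. With shDNMT1#1 and shDNMT1#2 that median was -0.03 and -0.15, and over all genes the medians were 0.05 to 0.08. Spread and hairpin go together on these arrays, and the cause of the lower medians was not tested. The 3′ minus 5′ signal of the ACTB control probe sets averaged 1.00 with shHDAC3#1, 0.73 with shLuc and 0.71 to 0.74 with the other hairpins, and that of GAPDH 0.52, 0.39 and 0.35 to 0.47. The part of the 3′ minus 5′ signals in the changes of the subunit genes was not tested, and no alternative used them. That of the array spread was not tested beyond the scaling alternatives given beside the results.

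Most of the other subunit genes were lower with shHDAC3#1, as RPN2 was, and MAGT1 came closest to it in size. RPN2 was at 12.7% of its control level. MAGT1 fell to 25%, and OSTC, DDOST, STT3A, STT3B, RPN1 and OST4 fell to between 55.9% and 83.2%. Against shLuc, 7 of the 9 other subunit genes were called lower and 0 higher (adjusted p under 0.05, limma with Benjamini-Hochberg adjustment over all genes), where 16.6% of all genes were called lower and 7.83% higher. Among the 2926 genes with a mean log2 signal of at least 8, a limit chosen after the data were seen, 41.0% were called lower. TUSC3 and DAD1 were not called. The count was 4 of 9 after a further quantile normalization, where 13.5% of all genes were called lower. It was 1 of 9 with the SD of each array as a covariate, a fit in which the target HDAC3 also lost its call with this hairpin. The median change of the 9 genes was -0.58, against 0.06 over all genes and -0.17 over those bright genes. In cells grown in bulk, fewer cells with a transcript and less of it per cell cannot be told apart.

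RPN2 encodes ribophorin II, a membrane subunit of both forms. Its log2 signal was 11.13 and 11.18 with shLuc, 8.18 and 8.18 with shHDAC3#1, 10.52 and 10.68 with shHDAC3#2, 11.06 and 11.20 with shDNMT1#1, and 11.04 and 10.84 with shDNMT1#2. The shHDAC3#1 arrays stood far below all others, and the shHDAC3#2 arrays lay between them and the remaining 6. The difference of -2.98 ± 0.09 between shHDAC3#1 and shLuc, 7.88-fold, was the largest fall of the 19775 genes, which is what led to this choice of genes.

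MAGT1 encodes the thioredoxin-like subunit of the STT3B form. Its log2 signal was 9.70 and 9.55 with shLuc, 7.58 and 7.68 with shHDAC3#1, 9.16 and 9.38 with shHDAC3#2, 9.65 and 9.39 with shDNMT1#1, and 9.35 and 9.33 with shDNMT1#2. Both shHDAC3#1 arrays were below every other array, and the other 4 groups lay close together. The fall with shHDAC3#1 was -2.0 ± 0.10 (3.99-fold, adjusted p = 1.6e-11, both arrays lower), the 29th largest of 19775. It kept its call in all 21 alternative analyses and was smallest, at -1.40, from a dimmer probe set. TUSC3, which can take the place of MAGT1, had a log2 signal of 4.08 and 4.17 with shLuc and 4.41 and 4.29 with shHDAC3#1, a difference that did not pass the test (0.23 ± 0.13, adjusted p = 0.20). The TUSC3 signals were below the median of every array (5.39 to 5.47), where a change of RNA can be understated.

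OSTC, which joins the STT3A form to the translocon, had a log2 signal of 9.94 and 9.93 with shLuc, 8.98 and 9.21 with shHDAC3#1, 9.60 and 9.81 with shHDAC3#2, 10.24 and 10.09 with shDNMT1#1, and 10.10 and 9.88 with shDNMT1#2. The shHDAC3#1 arrays were again the lowest of the 10, with no overlap with any other group. The fall was -0.84 ± 0.10 (1.79-fold, adjusted p = 3.3e-06). DDOST, a membrane subunit of both forms, was at 10.28 and 10.19 with shLuc, 9.51 and 9.62 with shHDAC3#1, 9.97 and 10.17 with shHDAC3#2, 10.09 and 10.04 with shDNMT1#1, and 10.55 and 10.32 with shDNMT1#2. Its shHDAC3#1 arrays were likewise below the other 8, and its fall was -0.67 ± 0.10 (1.59-fold, adjusted p = 2.4e-05). For MAGT1, OSTC and DDOST, this separation of arrays describes genes already called and adds no support.

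**Figure D1:**
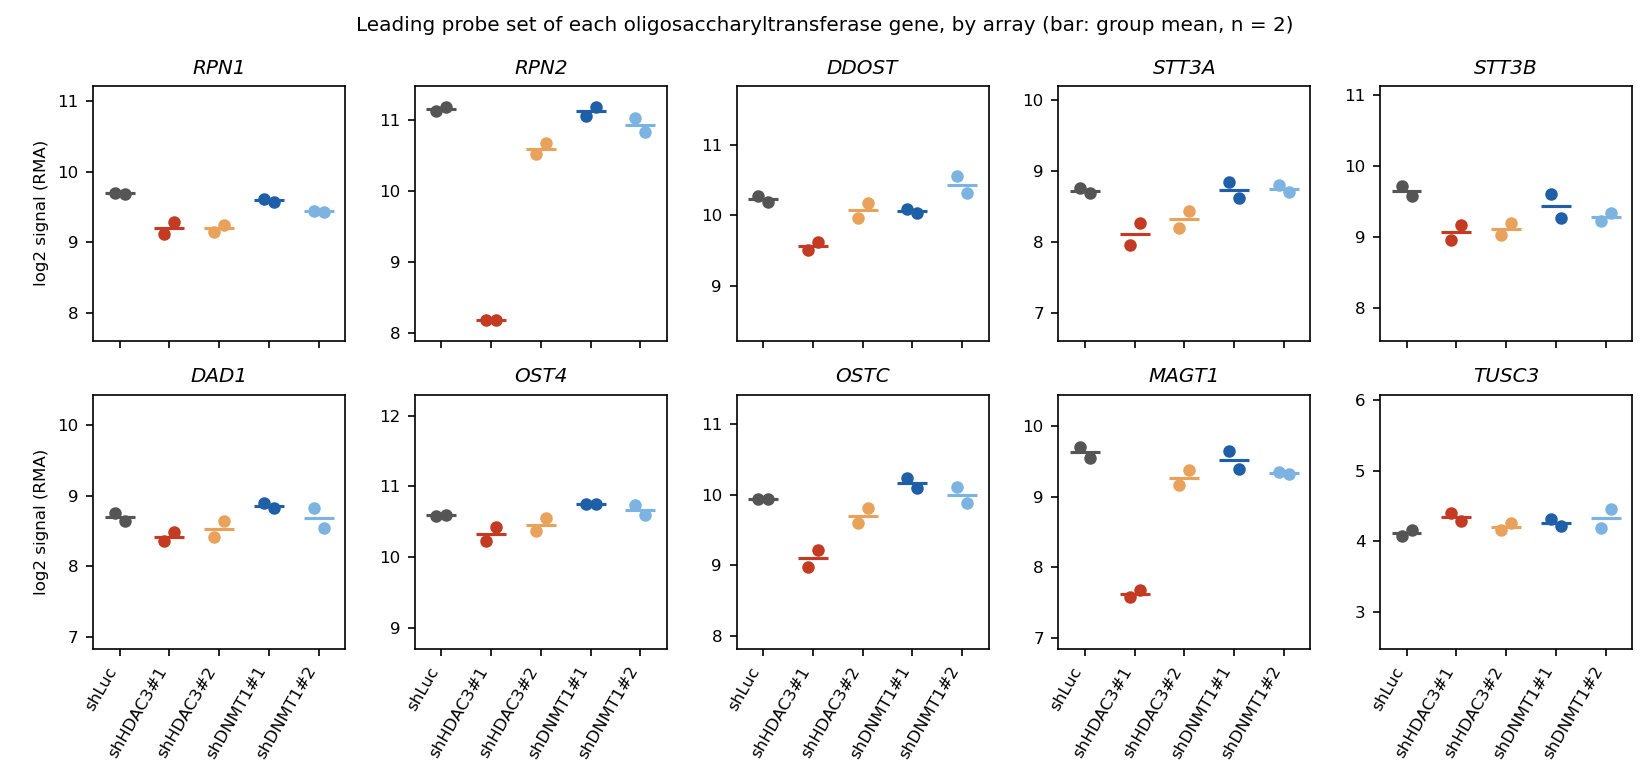
Log2 signal (RMA) of the leading probe set of each subunit gene on each array, 1 panel per gene and 1 point per array, with a bar at the group mean (n = 2). Each axis spans the same number of log2 units; RPN2 and MAGT1 fall furthest with shHDAC3#1, to 8.18 and 8.18 and to 7.58 and 7.68.

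Both catalytic subunits fell. STT3A was at 8.77 and 8.69 with shLuc and at 7.96 and 8.27 with shHDAC3#1, a fall of 0.61 ± 0.11 (adjusted p = 0.0004). STT3B was at 9.71 and 9.57 with shLuc and at 8.95 and 9.17 with shHDAC3#1 (-0.58 ± 0.11, adjusted p = 0.0005). For both genes the shHDAC3#1 and shLuc arrays did not overlap, which describes genes already called and adds no support. RPN1, or ribophorin I, which passes certain membrane proteins to the catalytic subunit, changed by -0.48 ± 0.09 (adjusted p = 0.00032). OST4, a single-span membrane peptide, changed by -0.26 ± 0.09 (adjusted p = 0.039), and DAD1, a membrane subunit named for the cell death seen when it is defective, by -0.28 ± 0.11 without passing the test (adjusted p = 0.066).

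How far the smaller changes extend depends on the scaling of the arrays. After a further quantile normalization, which gives all arrays the same spread, 4 of the 9 were called lower: MAGT1, OSTC, DDOST and STT3A. Of all genes, 13.5% were called lower after that step. STT3B was then at -0.23 (adjusted p = 0.058), RPN1 at -0.13 (0.17) and OST4 at -0.06 (0.44). With the SD of each array as a covariate, MAGT1 alone was called, at -1.47 (adjusted p = 2.9e-05), and STT3A, OST4 and DAD1 were at 0.08, 0.09 and 0.28. The array SD was 1.93 to 1.94 with shLuc and 1.86 to 1.88 with shHDAC3#1, so this fit cannot part spread from hairpin. HDAC3 itself was not called in that fit (-0.85). Quantile normalization also moved the split of all calls from 68.0% lower to 49.6% lower, and centring each array on its median moved it to 80.7%. OST4 lost its call without shLuc replicate 1, without shLuc replicate 2 and without shHDAC3#1 replicate 1, which left 6 of the 9 in each case (-0.27, -0.26 and -0.17), and DAD1 gained one at -0.28 without either shDNMT1#1 array.

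**Figure D2:**
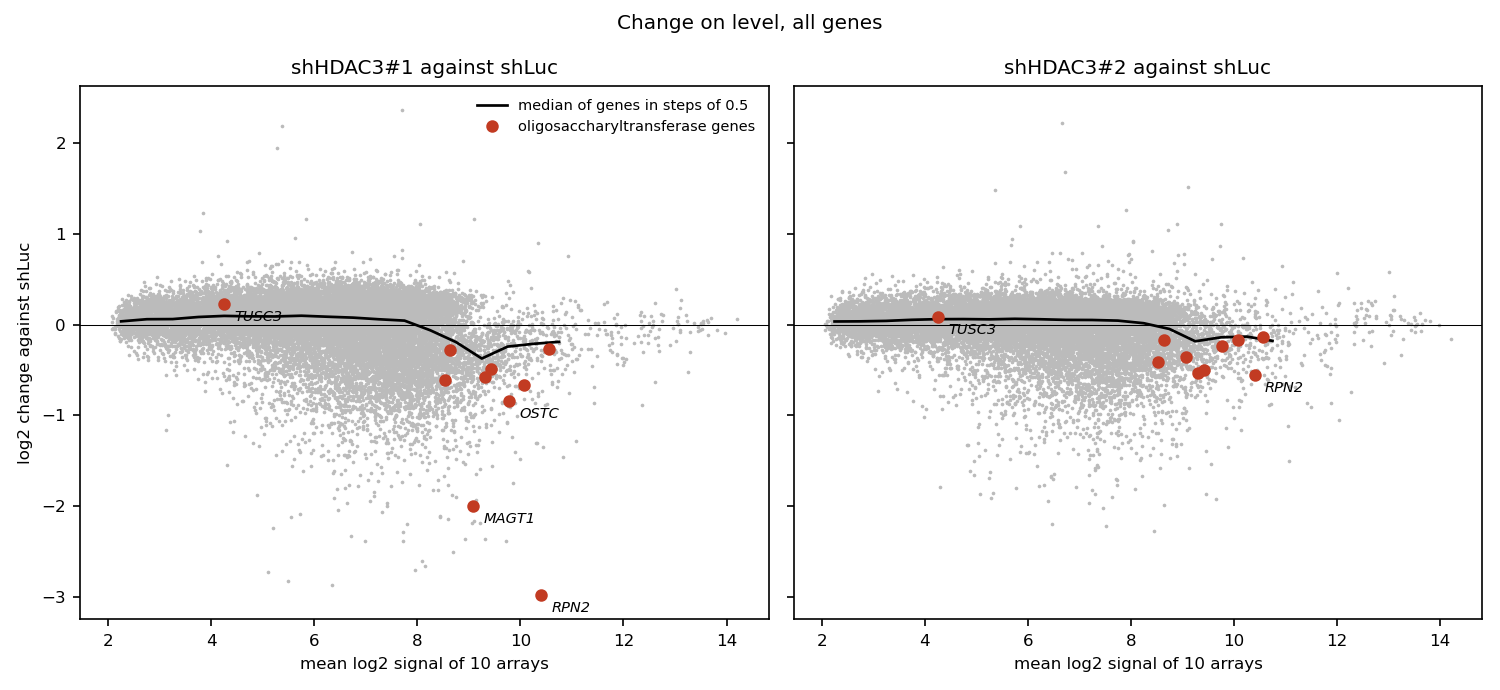
Log2 change against shLuc for each HDAC3 hairpin (vertical axis) plotted on the mean log2 signal of the 10 arrays (horizontal axis), with 1 grey point per gene, a black line at the median of genes in steps of 0.5, and the subunit genes in red. RPN2 (-2.98) and MAGT1 (-2.0) lie far under the median line with shHDAC3#1, while most of the others lie nearer to it, and the line itself dips for bright genes.

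The hairpins against HDAC3 differed in a few of the subunit genes and not detectably in HDAC3 itself. HDAC3 was 0.17 ± 0.18 higher with shHDAC3#1 than with shHDAC3#2 (log2, adjusted p = 0.67). In the same comparison 3 of the 9 genes other than RPN2 were called lower and 0 higher, where 8.85% of all genes and 22.7% of the bright genes were called lower and 3.75% of all genes higher, so the count is near that of the bright genes. These were MAGT1 (-1.64 ± 0.10, adjusted p = 4e-10), OSTC (-0.61 ± 0.10, 0.00022) and DDOST (-0.50 ± 0.10, 0.00077). RPN2 itself differed by -2.42, given with no test. RPN1 differed by 0.01 ± 0.09 (adjusted p = 0.97), STT3B by -0.05 ± 0.11 (0.86), DAD1 by -0.11 ± 0.11 (0.65), OST4 by -0.13 ± 0.09 (0.45) and STT3A by -0.20 ± 0.11 (0.33). The 3 calls held under every alternative in which the gene could be scored, including both that equalise the spread of the arrays. The exception was a second, dimmer probe set of DDOST (-0.13 ± 0.09, adjusted p = 0.49 over all probe sets).

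**Figure D3:**
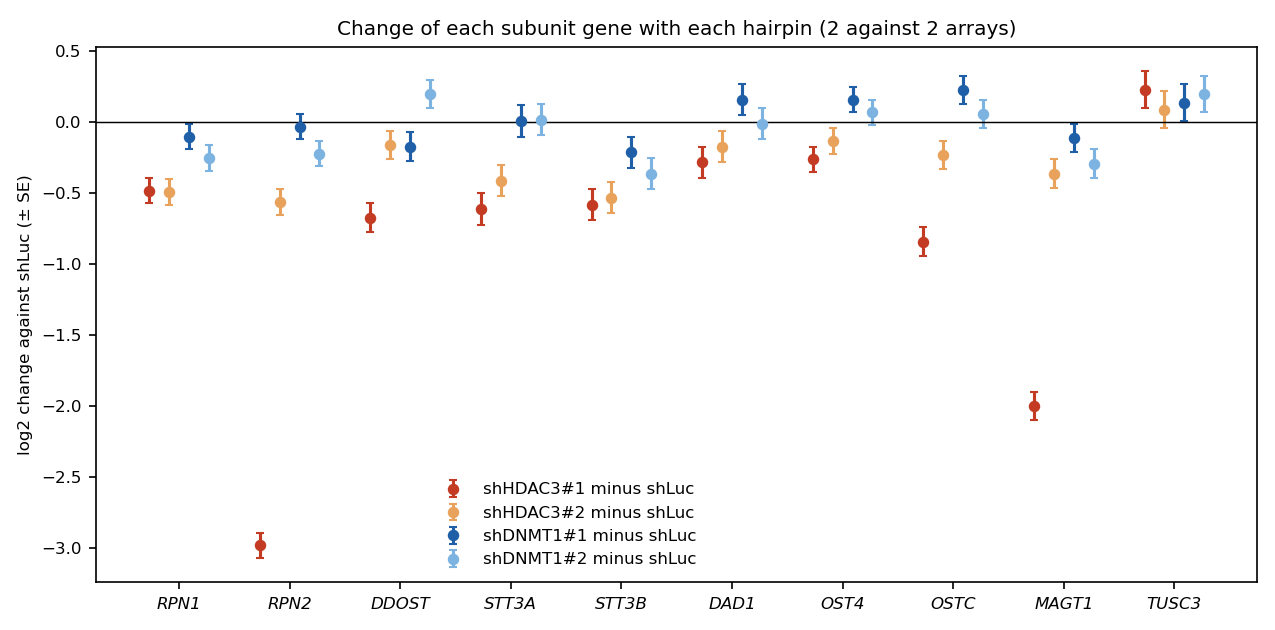
Log2 change of each subunit gene against shLuc (vertical axis), for 4 hairpins, with 1 point per gene and hairpin and bars of ± 1 SE from limma (2 against 2 arrays). RPN2, MAGT1, OSTC and DDOST separate shHDAC3#1 from shHDAC3#2, and RPN1 and STT3B read alike with both.

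With shHDAC3#2, 5 of the 10 subunit genes were called lower and 0 higher, where 9.54% of all genes and 22.7% of bright genes were called lower and 1.31% of all genes higher. The called genes were RPN2 (-0.56 ± 0.09, adjusted p = 0.0002), STT3B (-0.53 ± 0.11, 0.0021), RPN1 (-0.49 ± 0.09, 0.00046), STT3A (-0.41 ± 0.11, 0.021) and MAGT1 (-0.36 ± 0.10, 0.027). Both arrays of this hairpin were below both shLuc arrays for each of them, which describes genes already called and adds no support. OSTC (-0.23, adjusted p = 0.20), DDOST (-0.16, 0.36), DAD1 (-0.17, 0.39) and OST4 (-0.13, 0.44) did not pass, nor did TUSC3 (0.09, 0.74). The median of the 10 was -0.29, against 0.05 over all genes. Further quantile normalization left 3 calls (RPN2, RPN1 and STT3B), adding the SD of each array as a covariate left 0, and 2 (RPN1 and RPN2) remained called without shLuc replicate 1. Without that array STT3A was at -0.37, STT3B at -0.46 and MAGT1 at -0.28. STT3A lost its call also without shLuc replicate 2 (-0.45) or shHDAC3#2 replicate 1 (-0.29), and MAGT1 also without the latter (-0.25). Quantile normalization called 7.91% of all genes lower and moved the split of all calls from 87.9% to 72.0% lower.

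With the DNMT1 hairpins the subunit genes changed little, and the sign of what was called depended on the scaling. None of the 10 was called with shDNMT1#1, where 6.81% of all genes were called lower and 1.34% higher, and 458 of the 2926 bright genes were called lower. The changes of the 10 ran from -0.21 (STT3B) to 0.23 (OSTC), and 1 gene had an unadjusted p under 0.05. With shDNMT1#2, 3 of 10 were called lower and 0 higher, where 15.2% of all genes and 39.8% of bright genes were called lower and 11.6% of all genes higher. These were STT3B (-0.36 ± 0.11, adjusted p = 0.020), MAGT1 (-0.29 ± 0.10, 0.044) and RPN1 (-0.25 ± 0.09, 0.040). After further quantile normalization, 0 were called lower and 4 higher with shDNMT1#2: DDOST (0.46), OSTC (0.42), STT3A (0.31) and OST4 (0.29). Of all 19775 genes, 2571 were called lower and 2961 higher after that step. STT3B was then at 0.01, MAGT1 at 0.08 and RPN1 at 0.12. With shDNMT1#1 the same step gave 1 gene called higher (OSTC, 0.33), where 2.06% of all genes were called higher. Without shLuc replicate 1 none of the 3 was called with shDNMT1#2 (RPN1 -0.25, STT3B -0.29, MAGT1 -0.21), nor without shDNMT1#2 replicate 1 (-0.26, -0.30 and -0.30). RPN1 lost its call also without shLuc replicate 2 (-0.26), MAGT1 also without either shHDAC3#1 array (-0.29 each), and both without shDNMT1#2 replicate 2 (-0.24 and -0.28). The split of all calls with this hairpin was 56.7% lower, 46.5% after quantile normalization and 76.4% after centring.

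The 2 DNMT1 hairpins differed in 1 of the 10 subunit genes, DDOST, which was lower with shDNMT1#1 than with shDNMT1#2 (-0.37 ± 0.10, adjusted p = 0.013), where 3.57% of all genes were called lower and 8.39% higher. Of the 2926 bright genes, 85 were called lower and 696 higher. The second probe set of DDOST gave -0.26 ± 0.09 (adjusted p = 0.096 over all probe sets). The DDOST call was lost without shDNMT1#1 replicate 2 (-0.35) and without shDNMT1#2 replicate 1 (-0.25). The split of all calls moved here from 29.9% to 43.3% lower under quantile normalization.

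Every probe set of RPN2 and MAGT1 was lower with shHDAC3#1. The 3 probe sets of RPN2 differed by -2.98, -2.88 and -3.07 between shHDAC3#1 and shLuc. With shHDAC3#2 they read -0.56, -0.54 and -0.55, with adjusted p = 0.00035, 0.00055 and 0.00063 over all probe sets. All 3 are of kinds that by design can bind related transcripts, so RPN2 and DDOST could not be scored without such probe sets. The 3 probe sets of MAGT1 read -2.0, -1.40 and -2.07 with shHDAC3#1 (adjusted p = 9.1e-11, 2.3e-08 and 1e-09 over all probe sets). They parted with the other hairpins: with shHDAC3#2 they were at -0.36, -0.27 and -0.57, and with shDNMT1#2 at -0.29, -0.08 and -0.64, and the second was not called in either case. Adjusted over all probe sets, the leading one of MAGT1 was called with shHDAC3#2 (adjusted p = 0.035) and not with shDNMT1#2 (0.054). The 2 of DDOST read -0.67 and -0.31 with shHDAC3#1 (adjusted p = 5e-05 and 0.024), so both fell and the dimmer one by less. The 4 further probe sets of TUSC3 had mean signals of 2.55 to 2.96, and 1 of them was called higher with shDNMT1#2 (0.38 ± 0.12, adjusted p = 0.023). RPN1, STT3A, STT3B, DAD1, OST4 and OSTC have 1 probe set each.

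**Figure D4:**
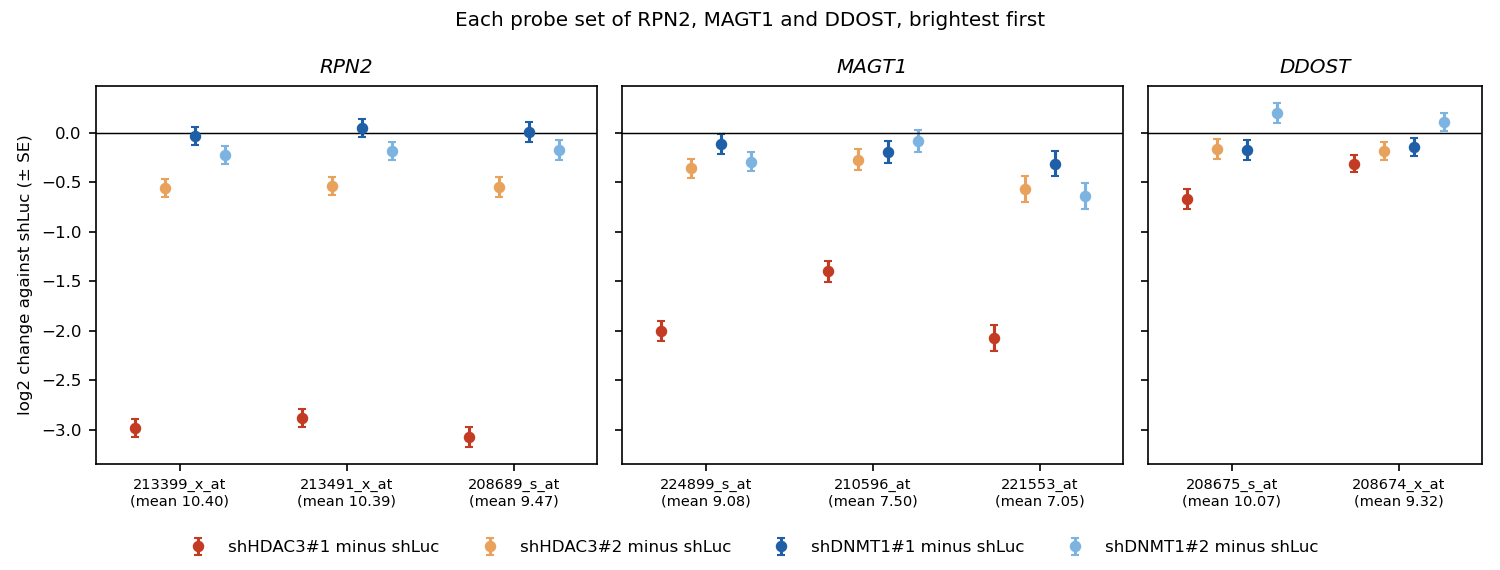
Log2 change against shLuc (vertical axis, ± SE) of every probe set of RPN2, MAGT1 and DDOST, ordered by mean log2 signal within a gene, for 4 hairpins. The 3 of RPN2 lie between -2.88 and -3.07 with shHDAC3#1, the 3 of MAGT1 between -1.40 and -2.07, and the 2 of DDOST at -0.67 and -0.31.

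The genes with a response most like that of RPN2 were ranked by the root mean square difference of the 4 log2 changes against shLuc. The ranking covered 11286 genes with a mean log2 signal of at least 6, and symbols that start with LOC were left out. The 4 changes share the same 2 control arrays, and no test was made. They include the change with shHDAC3#1 by which RPN2 was chosen, so the ranks of the subunit genes largely restate the size of their fall with that hairpin. The nearest were KLHL5, a member of the Kelch-like family (difference 0.13), BLOC1S6, a protein of endosome and lysosome biogenesis (0.27), ARMC1 (0.28), MARCKS, an actin-binding target of protein kinase C (0.34), and the small GTPase RAP1B (0.36). Their changes with shHDAC3#1 were -2.87, -2.65, -2.70, -2.61 and -2.36, and with shHDAC3#2 -0.50, -0.25, -0.24, -0.64 and -0.45. With shDNMT1#1 the 5 read from -0.53 to -0.23, and with shDNMT1#2 from -0.51 to -0.24. Another choice of probe sets moved some of them: with all probe sets of a gene averaged, KLHL5 read -1.15 with shHDAC3#1 and MARCKS -1.65. MAGT1 was the 10th nearest gene (0.50). The next subunit genes were OSTC at rank 411 (1.10), DDOST at 844, STT3A at 853 and STT3B at 930. RPN1, at rank 1262, DAD1, at 2768, and OST4, at 2948, were the least near of those ranked, and TUSC3 was too dim to enter.

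Of the 3 further subunits and partners, TMEM258, a small subunit of the complex, was lower with both HDAC3 hairpins. Its log2 signal was 10.69 and 10.75 with shLuc, 9.75 and 9.92 with shHDAC3#1, and 10.23 and 10.47 with shHDAC3#2. It had no overlap between these groups, which adds no support to its calls. It fell by 0.89 ± 0.09 with shHDAC3#1 (adjusted p = 4.9e-07) and by 0.37 ± 0.09 with shHDAC3#2 (0.011), and was 0.01 and 0.00 from shLuc with the DNMT1 hairpins. With the SD of each array as a covariate neither HDAC3 call remained (-0.62 and -0.20, adjusted p = 0.12 and 0.78). The call with shHDAC3#2 was lost without shLuc replicate 1 (-0.40), shLuc replicate 2 (-0.34) or shHDAC3#2 replicate 1 (-0.25). The difference of -0.52 ± 0.09 between the HDAC3 hairpins also passed the test (adjusted p = 0.00047). MLEC, or malectin, a glycan-binding partner, was called lower with both HDAC3 hairpins (-0.31 and -0.38, adjusted p = 0.020 and 0.0086) and with shDNMT1#2 (-0.60, adjusted p = 6e-05). MLEC also has a dimmer probe set, which was called in none of these comparisons (-0.21, -0.24 and -0.31, adjusted p = 0.22, 0.30 and 0.069 over all probe sets). Its call with shHDAC3#1 was lost without any 1 of the shLuc or shHDAC3#1 arrays (-0.35 to -0.28), and that with shHDAC3#2 without shLuc replicate 2 (-0.35) or shHDAC3#2 replicate 1 (-0.31). KRTCAP2, which like OSTC belongs to the STT3A form, was at -0.05 ± 0.10 with shHDAC3#1 (adjusted p = 0.72). After quantile normalization KRTCAP2 was called higher there (0.22, adjusted p = 0.018) and MLEC was no longer called with either HDAC3 hairpin (-0.09 and -0.23, adjusted p = 0.43 and 0.086), while TMEM258 was called higher with shDNMT1#2 (0.23, 0.011).

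The steps around the complex were read from 4 lists chosen by function. With shHDAC3#1, 12 of 20 measured genes of dolichol-linked glycan assembly, 9 of 14 of glycan trimming and the lectin cycle, 10 of 15 of the translocon, TRAP and signal peptidase, and 2 of 7 of nucleotide sugar supply were called lower, and 0 of them higher. Over all genes 16.6% were called lower and 7.83% higher, and of bright genes 41.0% were called lower. The list medians were -0.42, -0.39, -0.41 and 0.02, against 0.06 over all genes. DPAGT1, which adds the first sugar to dolichol, changed by -1.34 ± 0.11, ALG13, of the second step, by -0.94 ± 0.16, and MPDU1, needed for the use of dolichol-linked mannose and glucose, by -0.88 ± 0.10. Among the lectins, LMAN1, a cargo receptor for glycoproteins leaving the endoplasmic reticulum, changed by -1.74 ± 0.09 and the chaperone CANX, or calnexin, by -1.34 ± 0.09. EDEM3, which trims mannose from misfolded glycoproteins, changed by -0.67 ± 0.11. UAP1, which makes UDP-N-acetylglucosamine, changed by -2.51 ± 0.11, more than any other listed gene but RPN2, and UGP2, which makes UDP-glucose, by -0.81 ± 0.10. The signal peptidase subunits SPCS3 and SEC11C and the translocon channel SEC61A1 changed by -0.70, -0.65 and -0.63. Under quantile normalization the counts were 11, 6, 8 and 2 lower and 0, 1, 2 and 1 higher. Of all genes, 13.5% were then called lower and 13.8% higher. With the SD of each array as a covariate they were 1, 2, 0 and 1 lower and 0 higher, and the list medians -0.06, -0.15, -0.03 and 0.18.

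**Figure D5:**
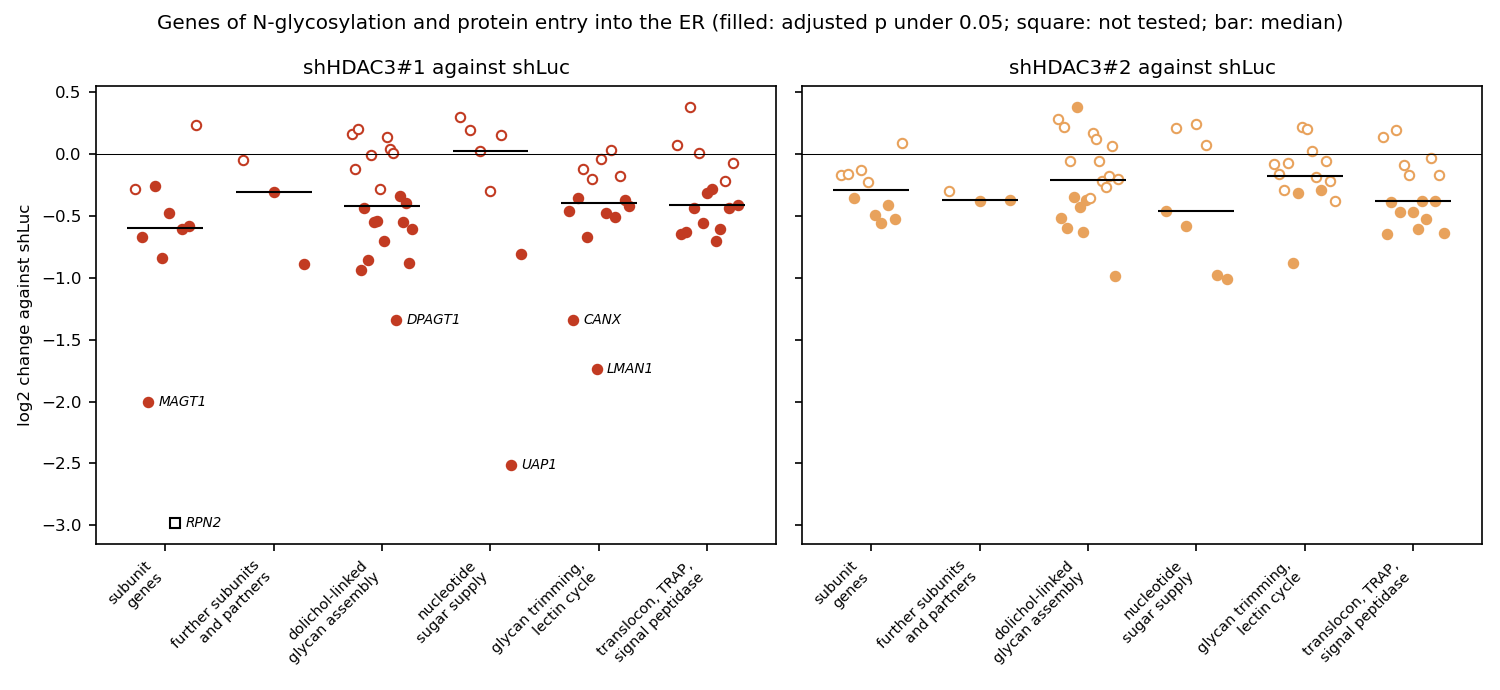
Log2 change against shLuc (vertical axis) of each measured gene of the subunit set, its further subunits and partners and 4 pathway lists, for each HDAC3 hairpin. Filled points were called at an adjusted p under 0.05, open points were not, the square is RPN2, which was not tested in that contrast, and bars are list medians; UAP1 (-2.51), LMAN1 (-1.74), CANX and DPAGT1 (-1.34 each) stand lowest outside the subunits with shHDAC3#1.

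With shHDAC3#2 the same 4 lists held 7, 3, 9 and 4 genes called lower and 1, 0, 0 and 0 called higher. Over all genes 9.54% were called lower and 1.31% higher, and of bright genes 22.7% were called lower. MPDU1 (-0.99), ALG6, a glucosyltransferase of the dolichol pathway (-0.63), UGP2 (-1.01), UAP1 (-0.98), EDEM3 (-0.88), GANAB, a subunit of glucosidase II (-0.32), SEC11C (-0.65) and the translocon partner TRAM1 (-0.64) led their lists. LMAN1 (0.22, adjusted p = 0.15), CANX (-0.16, 0.34) and DPAGT1 (-0.22, 0.28) did not pass the test with this hairpin. The calls of ALG6 and GANAB were lost without shLuc replicate 1 (-0.52 and -0.34), that of ALG6 without shHDAC3#2 replicate 1 (-0.47), and that of GANAB without shLuc replicate 2 (-0.30) or shHDAC3#2 replicate 2 (-0.25). Quantile normalization gave 4, 1, 7 and 4 lower and 1, 1, 1 and 0 higher, where 7.91% of all genes were called lower and 3.07% higher. The array SD as a covariate gave 1, 1, 2 and 2 lower and 1, 0, 0 and 0 higher.

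With shDNMT1#1 the counts of genes called lower were 1, 3, 1 and 2, and those called higher 1, 1, 0 and 0. Over all genes 6.81% were called lower and 1.34% higher, and 458 of the 2926 bright genes were called lower. UAP1 (-1.28), EDEM3 (-0.87), UGP2 (-0.72), ALG13 (-0.66), NGLY1, which removes glycans from misfolded proteins (-0.66), and SPCS1 (-0.37) were called lower. DPM3, an anchor subunit of dolichol-phosphate mannose synthase, was called higher (0.41). The calls of ALG13, SPCS1 and DPM3 were lost without shLuc replicate 1 (-0.65, -0.34 and 0.40), those of ALG13 and SPCS1 without shLuc replicate 2 (-0.66 and -0.39), and these also without shDNMT1#1 replicate 2 (ALG13, -0.35) or replicate 1 (SPCS1, -0.33). With shDNMT1#2 the counts were 8, 3, 4 and 2 lower and 2, 2, 2 and 1 higher. Over all genes 15.2% were called lower and 11.6% higher, and of bright genes 39.8% were called lower. The called genes were led by TRAM1 (-1.50), DPM2, a regulatory subunit of the same synthase (-1.20), SPCS2 (-1.0), EDEM3 (-0.95), ALG13 (-0.84), UGP2 (-0.76), UAP1 (-0.71) and NGLY1 (-0.66). Quantile normalization turned the balance in 2 of the lists with shDNMT1#2. Glycan trimming then held 3 lower and 7 higher, and the translocon list 3 lower and 8 higher. Of all 19775 genes, 2571 were called lower and 2961 higher after that step. With the SD of each array as a covariate the lower counts were 0, 2, 0 and 2 with shDNMT1#1 and 0, 0, 1 and 0 with shDNMT1#2. Without probe sets that can bind related transcripts, NGLY1 read 0.22 and 0.44 with the DNMT1 hairpins, SPCS2 0.10 with shDNMT1#2, and UGP2 -0.06 with shHDAC3#1, 0.07 with shHDAC3#2, -0.08 with shDNMT1#1 and 0.04 with shDNMT1#2, so that none of the UGP2 calls remained.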

How the data were processed

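The authors used RMA, per the submitters' processing notes, and deposited log2 values for 54675 Affymetrix probe sets. RMA subtracts background, brings the probe intensities of arrays to a common distribution and combines them into one signal. Which version was used, and whether in a single run, is not given in the sources. RMA signals near background understate changes. Depth does not apply, and the 2 arrays a group limit the precision.

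Of the probe sets, 41097 carried 1 gene symbol in the platform annotation, 1801 several and 11777 none. The last 2 kinds named no gene. For 19775 genes the probe set with the highest mean of the 10 arrays entered limma 3.58.1 (R 4.3.3; lmFit and trended eBayes), in 1 model of 5 groups with 5 residual degrees of freedom. Tests were two-sided, and Benjamini-Hochberg adjustment ran over all genes of a comparison at 0.05. SE is limma's. A fit over all single-symbol probe sets gave the values of single probe sets. The test was checked on simulated data. Named were all subunit genes, both targets, the 3 further subunits and partners, up to 3 called genes of each other list with the largest change with shHDAC3#1 and up to 2 with each other hairpin, and the 5 genes nearest to RPN2; other genes were named after their values were seen where lists were compared between hairpins. Of the dolichol, sugar and translocon lists, 20 of 24, 7 of 10 and 15 of 16 entries were measured. The members and lists were chosen with earlier results of these data known. Alternatives covered the probe set choice, a filter on dim genes, scaling, the variance model, array weights, pairing, and each array left out.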

Additional observations from a re-analysis of the deposited data

Results flagged for a closer look

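Some genes of the complex responded differently to the 2 hairpins against 1 target, by a contrast between the hairpins in limma with Benjamini-Hochberg adjustment over all genes. Between shHDAC3#1 and shHDAC3#2, MAGT1 differed by -1.64 ± 0.10 (SE, adjusted p = 4e-10), OSTC by -0.61 ± 0.10 (0.00022), TMEM258 by -0.52 ± 0.09 (0.00047) and DDOST by -0.50 ± 0.10 (0.00077). Each was lower on both shHDAC3#1 arrays than on both shHDAC3#2 arrays, which describes genes already called and adds no support. In this comparison 8.85% of all genes and 22.7% of bright genes were called lower, and 3.75% of all genes higher. Between shDNMT1#1 and shDNMT1#2, DDOST differed by -0.37 ± 0.10 (adjusted p = 0.013), while MLEC was 0.38 ± 0.09 higher (0.0097) and KRTCAP2 0.30 ± 0.10 higher (0.047) with shDNMT1#1. In this contrast 3.57% of all genes were called lower and 8.39% higher. Of the 2926 bright genes, 85 were called lower and 696 higher. The dimmer probe sets of DDOST, MLEC and KRTCAP2 were not called in this contrast (-0.26, 0.10 and -0.24, adjusted p = 0.096, 0.66 and 0.28 over all probe sets). The MLEC call was lost without shDNMT1#1 replicate 1 (0.32) or shDNMT1#2 replicate 2 (0.33), the DDOST call without shDNMT1#1 replicate 2 (-0.35) or shDNMT1#2 replicate 1 (-0.25), and the KRTCAP2 call without any 1 array of the groups other than shHDAC3#2 (0.23 to 0.38). Cultures and hairpins cannot be told apart here, since each hairpin was read on 2 arrays of 1 group.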

How the results depend on the processing

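The changes of the subunit genes and of the genes named by rule were followed over the alternatives. Of 2711 values, 2484 kept their side of the threshold or, where no test was made, moved by less than the residual SD. Of these, 72, called in neither analysis, had the other sign. Another 131 lost their call, 24 gained one, 22 changed sign with a call in at least 1 analysis and 50 moved further without a test. The number of arrays and the unequal spread of their signals limit these comparisons. Of the 9 genes besides RPN2, the 7 calls with shHDAC3#1 became 4 with further quantile normalization and 1 with the array SD as a covariate, and 6 to 8 with 1 array left out. For the other comparisons with shLuc and between the DNMT1 hairpins, all 10 genes were counted, RPN2 among them. The 5 with shHDAC3#2 became 3 with quantile normalization, without probe sets that can cross-hybridize or without the variance trend, 0 with the array SD, and 2 to 5 with 1 array left out (2 without shLuc replicate 1, 3 without shHDAC3#2 replicate 1). The 0 with shDNMT1#1 became 1 with quantile normalization, 2 with the array SD, and 0 to 1 with 1 array left out (1 without shDNMT1#1 replicate 1). The 3 with shDNMT1#2 became 1 without the trend, 0 with the array SD, and 0 to 3 with 1 array left out (0 without shLuc replicate 1 or shDNMT1#2 replicate 1, 1 without shDNMT1#2 replicate 2). The 1 call between DNMT1 hairpins became 0 without cross-hybridizing probe sets, 2 with the array SD, and 0 to 1 with 1 array left out (0 without shDNMT1#1 replicate 2 or shDNMT1#2 replicate 1). Between HDAC3 hairpins, the 3 calls of the 9 genes besides RPN2 became 2 without cross-hybridizing probe sets, where DDOST could not be scored, and stayed at 3 otherwise. Without cross-hybridizing probe sets, RPN2 with shHDAC3#2 and DDOST between the DNMT1 hairpins could not be scored, so neither lost a call by test. MAGT1 did lose its call there with shHDAC3#2 (-0.27). The cause of these differences was not tested.

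Same-numbered arrays share only a number: the correlations of their deviations ran from -0.343 to 0.266 over 10 pairs of groups. With the replicate block the counts were 6, 5, 0 and 1 for shHDAC3#1, shHDAC3#2, shDNMT1#1 and shDNMT1#2, and 3 and 1 between hairpins. A crossed replicate block, added after seeing the data, gave 6 for shHDAC3#1.

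Signs that turned where at least 1 of the analyses made a call were, with quantile normalization, RPN1 0.12, STT3B 0.01, MAGT1 0.08 and KRTCAP2 0.06 with shDNMT1#2, KRTCAP2 0.22 with shHDAC3#1, and TMEM258 -0.21 between DNMT1 hairpins. With the array SD they were STT3A 0.08 and OST4 0.09 with shHDAC3#1, STT3A 0.03 with shHDAC3#2, RPN1 0.07, STT3B 0.33, MAGT1 0.38, KRTCAP2 0.26 and ALG13 0.13 with shDNMT1#2, and KRTCAP2 -0.05 between DNMT1 hairpins. Without cross-hybridizing probe sets they were UGP2 0.07 with shHDAC3#2, NGLY1 0.22 with shDNMT1#1, KRTCAP2 0.09, UGP2 0.04, NGLY1 0.44 and SPCS2 0.10 with shDNMT1#2, and KRTCAP2 -0.24 between DNMT1 hairpins. The number of all genes called ran from 225 to 5691 for shHDAC3#1, 521 to 2473 for shHDAC3#2, 524 to 2556 for shDNMT1#1 and 119 to 5959 for shDNMT1#2, and from 1635 to 3108 and 670 to 2556 between the HDAC3 and the DNMT1 hairpins.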
